A study of Mus musculus with 6 samples.

Results

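Mucin genes and genes of goblet cell secretion were followed in sorted oesophageal cells of mice given ibuprofen and of untreated mice. The set holds 10 genes of the 52636 gene IDs listed: the gel-forming mucins Muc2, Muc5ac and Muc5b, the transmembrane mucins Muc1, Muc4 and Muc20, the mucus proteins Fcgbp, Tff2 and Tff3, and the goblet cell folding factor Agr2. They were picked by symbol because Muc2 and Fcgbp were higher with ibuprofen, so their differences between the groups are given as a description: no p-value of theirs is printed, and where the fit over all genes calls one of them, the call supports nothing. The 3 ibuprofen libraries came from mice that drank water with 0.6 g per l of ibuprofen, which blocks the cyclooxygenase enzymes. The 3 untreated libraries came from mice without the drug. All mice, controls included, carried Krt5-CreERT2:R26SmoM2/EYFP and were taken 12 weeks after tamoxifen. In this model the keratin 5 promoter drives a tamoxifen-dependent Cre recombinase, and recombination turns on SmoM2, an oncogenic Smoothened protein that signals in the Hedgehog pathway without ligand. Every library therefore came from tissue with an activated Hedgehog pathway, and oesophagus without SmoM2 was not analysed here. Living cells of the thoracic oesophagus were sorted by high levels of EpCAM, which marks epithelial cells. In the titles, ibuprofen cells are named only as oesophageal, whereas untreated cells are also named as epithelial. The labels give neither the age of the mice nor the length of the ibuprofen treatment.

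Mucins are large glycoproteins whose serine- and threonine-rich domains carry dense O-linked sugars. Gel-forming mucins are secreted and cross-linked into mucus, while transmembrane mucins stay anchored on the cell surface. Goblet cells pack the gel-forming mucin MUC2 together with partner proteins such as FCGBP and trefoil factors, and need the protein disulphide isomerase AGR2 to fold it. The normal oesophagus is lined by a stratified squamous epithelium without goblet cells. Goblet cells appear there in intestinal metaplasia of Barrett's oesophagus, in which a columnar lining replaces the squamous one.

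Reads assigned to genes were estimated at 6361297 to 8764364 per library from the steps in the deposited CPM (reads of a gene scaled to a common library total). With these totals, a gene listed at 0 could still have an expected 3 reads, which is 0.368, 0.389 and 0.342 CPM in ibuprofen replicates 1, 2 and 3, and 0.472, 0.343 and 0.349 CPM in untreated replicates 1, 2 and 3. These floors, and the intervals given later, cover counting error only. The 10 genes together held 94 to 467 estimated reads per library, so most of their values rest on few reads. The squamous markers were abundant in all libraries: Krt5 averaged 2880 ± 225 CPM with ibuprofen and 3620 ± 439 CPM untreated, and Trp63, the master regulator of squamous basal cells, 1320 ± 124 and 1370 ± 173 CPM (SD, n = 3 each). Ibuprofen replicate 1 stood apart in collagen genes, with Col1a1 at 29 CPM against 4.7 and 3.7 CPM in ibuprofen replicates 2 and 3 and 3.65 to 4.6 CPM untreated. Col1a1 and Trp63 were named after their values were seen. Untreated replicate 1 stood apart in GC content. How far genes deviated there from their mean over the 6 libraries went with their GC content at a Spearman's rho of 0.469 across genes, against -0.324 to -0.0942 in the ibuprofen libraries and 0.192 and -0.285 in untreated replicates 2 and 3. Nothing in the labels says that libraries came from separate animals, and the library names carry one code for all ibuprofen libraries and another for all untreated ones, so the treatment and whatever the codes stand for cannot be told apart.

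Muc2 encodes the main gel-forming mucin of the intestine and lies on chromosome 7 at 141690340 to 141754693 (GRCm38). It had 3.95, 1.85 and 4.8 CPM in ibuprofen replicates 1, 2 and 3, against 0.65, 0.5 and 0.35 CPM in untreated replicates 1, 2 and 3. All 3 ibuprofen libraries lay above all 3 untreated ones. The values stand for 32, 14 and 42 estimated reads with ibuprofen and 4, 4 and 3 reads untreated, so the untreated level was close to the floor. Means were 3.53 ± 1.52 and 0.5 ± 0.15 CPM (SD, n = 3 each), a ratio of 7.06. On the log2(CPM + 1) scale the difference was 1.54 ± 0.28 (SE), a scale that understates the change of low genes. Ibuprofen replicate 2 was the lowest of its group, with an exact 95% counting interval of 0.994 to 3.05 CPM, and untreated replicate 1 the highest of its group, with 0.171 to 1.61 CPM; these 2 intervals overlap.

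Fcgbp encodes the Fc-gamma binding protein, a secreted partner of MUC2 in mucus, and lies on the same chromosome at 28071236 to 28120862. It had 32.8, 16.7 and 20.5 CPM in ibuprofen replicates 1, 2 and 3, against 8.84, 8.24 and 8.3 CPM in untreated replicates 1, 2 and 3. The groups did not overlap, and the untreated libraries lay close together while the ibuprofen libraries were spread. Fcgbp was the best covered of the 10 genes, with 129 to 268 estimated reads with ibuprofen and 56 to 72 reads untreated. Means were 23.4 ± 8.41 and 8.46 ± 0.333 CPM (SD, n = 3 each), a ratio of 2.76 and a log2 difference of 1.31 ± 0.22 (SE). Without ibuprofen replicate 1, the library with high collagen genes, the log2 difference was 1.05. A related gene next to it, 9530053A07Rik, was looked up after the values of Fcgbp were seen, and RefSeq lists FCGBP among its synonyms. It had 2.25, 0.3 and 0.799 CPM in the ibuprofen replicates and 0.65, 0.6 and 0.5 CPM in the untreated ones. Ibuprofen replicate 1 was the high library for both genes, and reads shared between such related genes could be split by the counting.

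The promoters of these 2 genes are shown because their values carry the description above. Each is the 250 bases before the start of transcription in RefSeq (GRCm38.p6, plus strand), Muc2 at chr7:141690090-141690339 and Fcgbp at chr7:28070986-28071235. Capitals mark matches on either strand to any of 5 motifs searched: GACCACCCA, bound by the GLI factors of the Hedgehog pathway, TGTTTAC of forkhead factors, CAATAAA of CDX factors, AGATAA of GATA factors, and the TATA box TATAAA.
Muc2: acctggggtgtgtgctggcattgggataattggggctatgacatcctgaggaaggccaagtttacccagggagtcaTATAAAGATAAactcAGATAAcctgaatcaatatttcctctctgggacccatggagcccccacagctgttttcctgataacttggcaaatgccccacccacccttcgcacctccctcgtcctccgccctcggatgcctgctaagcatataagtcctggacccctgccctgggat
Fcgbp: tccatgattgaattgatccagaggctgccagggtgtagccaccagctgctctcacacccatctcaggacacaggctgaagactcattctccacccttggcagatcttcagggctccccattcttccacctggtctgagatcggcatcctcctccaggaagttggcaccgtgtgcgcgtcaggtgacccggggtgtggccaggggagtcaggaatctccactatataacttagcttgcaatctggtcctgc

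The Muc2 window held the GATA letters 2 times, starting at -169 and -159 from the start, and the TATA letters at -174, which overlap the first GATA match. The Fcgbp window held none of the 5 motifs as spelled. Only these exact letters were searched, so close variants are not marked. Variants of the TATA letters stand near the end of both windows, tataac in Fcgbp and tataag in Muc2. A missing match therefore does not show that a promoter lacks a TATA box. Over 32851 RefSeq promoter windows of the same length, 9.99% held the GATA letters, 12.4% the TATA letters, 4.2% the CDX letters, 3.17% the forkhead letters and 0.225% the GLI letters. Promoters of 6 of the 10 genes were in the table, and besides Muc2 the TATA letters stood in Muc1 and Muc4 and the forkhead letters in Muc20. A match describes letters in the window, not a bound site.

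The other gel-forming mucins differed mainly by 1 library. Muc5b, a mucin of airways and glands at 141839070 to 141873084 on chromosome 7, had 7, 4.95 and 19.6 CPM in ibuprofen replicates 1, 2 and 3, against 2.7, 5.15 and 5.85 CPM in the untreated replicates. Ibuprofen replicate 3 was high, while replicates 1 and 2 lay near or within the untreated range, so the groups overlapped. The log2 difference was 0.89 ± 0.4 (SE), and 0.36 without ibuprofen replicate 3. Muc5ac, the mucin of the gastric surface, at 141788972 to 141819231, had 0.15, 0.3 and 2.65 CPM with ibuprofen, against 0, 0.15 and 0.5 CPM untreated. Only ibuprofen replicate 3, with 23 estimated reads, was well above the floor, and the other 5 libraries had 0 to 4 reads. Its log2 difference was 0.55 ± 0.56 (SE) over all libraries and 0.03 without ibuprofen replicate 3.

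Agr2, at 35992907 to 36004087 on chromosome 12, had 3.7, 1.05 and 2.1 CPM in ibuprofen replicates 1, 2 and 3, against 0.65, 0.5 and 1.65 CPM in untreated replicates 1, 2 and 3. The groups overlapped, since untreated replicate 3 lay above ibuprofen replicate 2. The log2 difference was 0.73 ± 0.32 (SE), and 0.43 without ibuprofen replicate 1. Tff3, the trefoil factor of intestinal goblet cells, at 31125306 to 31129646 on chromosome 17, had 0.75, 0.55 and 0.6 CPM with ibuprofen, against 0.2, 0 and 0 CPM untreated. All ibuprofen libraries were above the floor of 3 reads and all untreated libraries below it, on 6, 4 and 5 reads with ibuprofen and 1, 0 and 0 reads untreated. The ratio of summed reads, scaled to depth, was 14.4, with an exact 95% counting interval of 2.22 to 607. This interval pools the 3 libraries of each group and leaves out the spread between them. In single libraries, the counting intervals of ibuprofen replicate 2, 0.141 to 1.33 CPM, and untreated replicate 1, 0.00398 to 0.876 CPM, overlap. Tff2, the trefoil factor of gastric and duodenal mucous glands, was listed at 0 in all 6 libraries, which allows up to the floor in each.

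The transmembrane mucins were low. Muc1, widely expressed on epithelial surfaces, had 2.1, 1.45 and 1.95 CPM in ibuprofen replicates 1, 2 and 3, against 1.75, 1.4 and 1.9 CPM in the untreated replicates. These ranges overlapped almost fully, and the log2 difference was 0.08 ± 0.21 (SE). Muc4, a mucin that binds the receptor ErbB2, had 0.75, 1.45 and 0.949 CPM with ibuprofen, against 0.2, 0.6 and 0.25 CPM untreated. The groups did not overlap, on 6, 11 and 8 estimated reads with ibuprofen and 1, 5 and 2 reads untreated. The log2 difference of Muc4 was 0.6 ± 0.19 (SE, from the group variances). Muc20 had at most 2 reads in any library and lay below the floor throughout. Muc4 and Muc20 overlap on opposite strands of chromosome 16 over 4973 bases, and the sources used here do not say whether the counting used the strand.

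**Figure D1:**
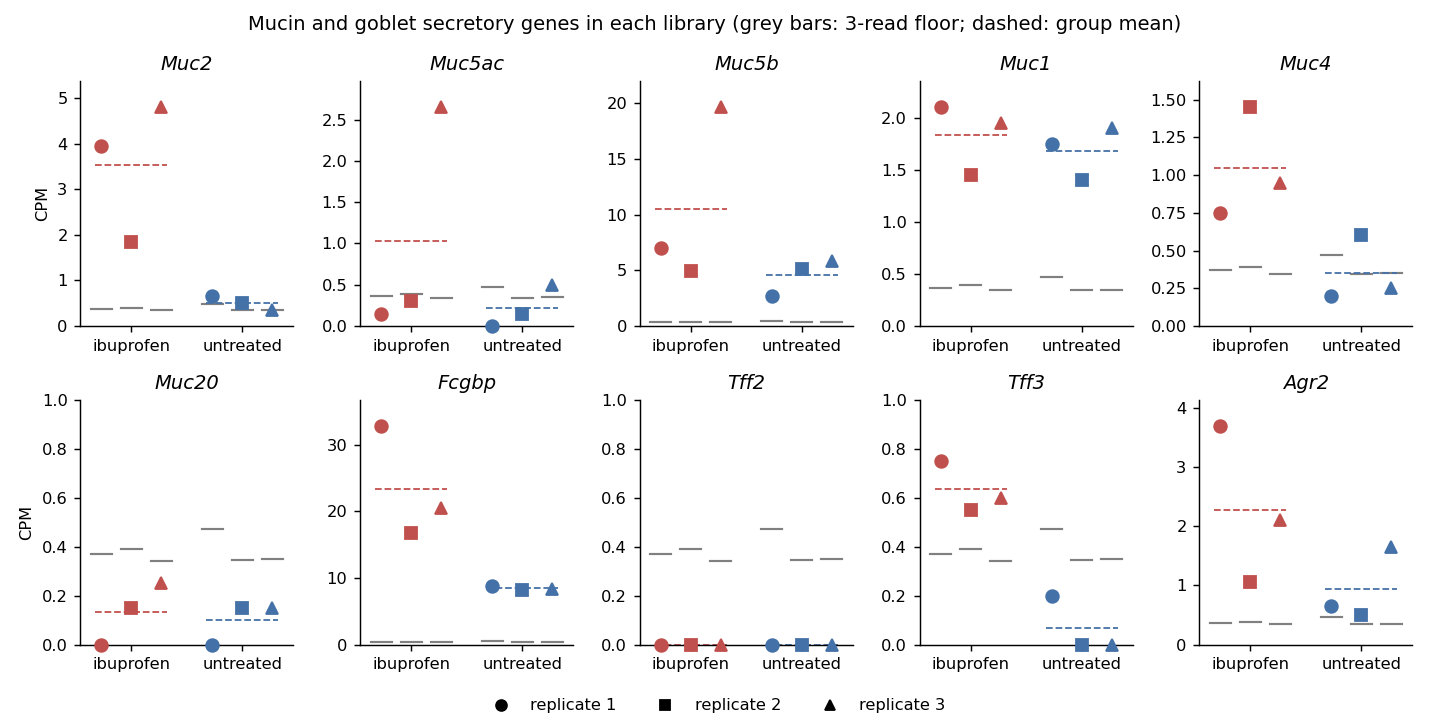
CPM of the 10 genes in each library, with ibuprofen libraries on the left (red) and untreated libraries on the right (blue), a dashed line at each group's mean and a grey bar at each library's floor of 3 reads. Muc2, Fcgbp, Tff3 and Muc4 show no overlap between the groups, Muc5b and Muc5ac stand out in ibuprofen replicate 3 only, and Tff2 is at 0 throughout.

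Taken over the set, 4 of the 10 genes (Muc2, Fcgbp, Tff3 and Muc4) had all ibuprofen libraries above all untreated ones and 0 had the reverse. Among all 34431 genes above 0 in at least 1 library, the shares were 9.72% and 4.84%. The set was chosen on this contrast, so nothing is read from these counts. The 10 genes did not share one order of the ibuprofen libraries. Replicate 1 was highest for Fcgbp, Agr2, Tff3 and Muc1, replicate 2 for Muc4, and replicate 3 for Muc2, Muc5b, Muc5ac and Muc20. In bulk samples, fewer cells of a type and less RNA per cell cannot be told apart.

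Levels of different genes were compared per kilobase of exon, since longer transcripts give more reads. With ibuprofen the order was Fcgbp at 2.23 ± 0.801, Agr2 at 1.77 ± 1.03 and Tff3 at 1.28 ± 0.211 CPM per kb (SD, n = 3). Next came Muc1 at 0.781 ± 0.145, Muc5b at 0.703 ± 0.532 and Muc2 at 0.495 ± 0.213 CPM per kb. Of neighbours in this order, Fcgbp, Agr2 and Tff3 overlapped each with the next, as did Muc1, Muc5b and Muc2, while Tff3 and Muc1 did not overlap. Untreated, Fcgbp was again first at 0.806 ± 0.0317 CPM per kb, followed by Agr2 at 0.723 ± 0.484 and Muc1 at 0.717 ± 0.109, whose ranges overlapped. Muc5b came next at 0.305 ± 0.11, Tff3 at 0.135 ± 0.234 and Muc2 at 0.0702 ± 0.021 CPM per kb. Muc5ac, Muc4, Muc20 and Tff2 were at most 0.096 CPM per kb in both groups. The Muc2 gene model used for its exon length, 7127 bases, is made of several partial transcripts, and its level per kb depends on that model.

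**Figure D2:**
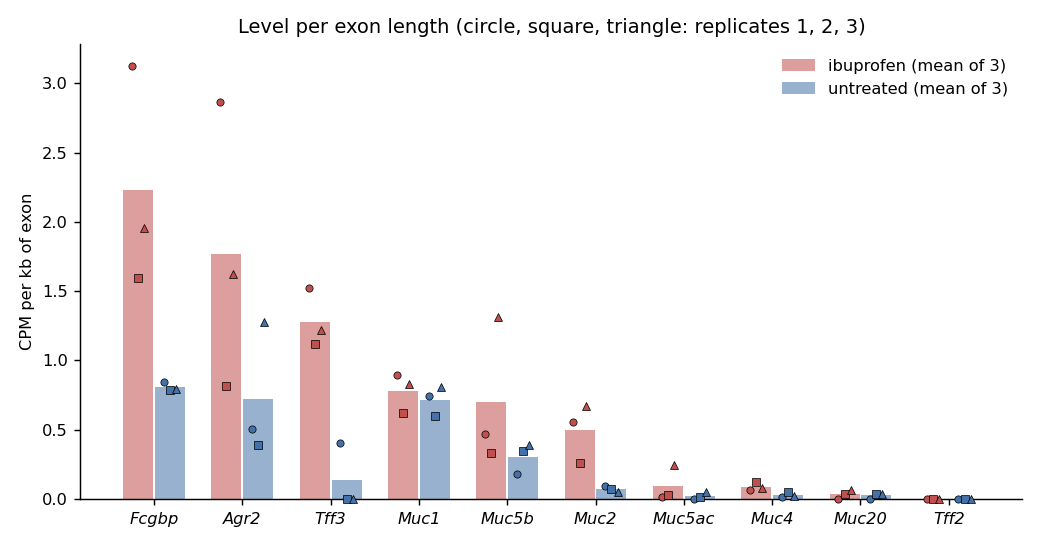
CPM per kilobase of exon for the 10 genes, ordered by their mean with ibuprofen. Bars are means of 3 ibuprofen libraries (red, left of each pair) and 3 untreated libraries (blue), and symbols are the single libraries; Fcgbp has the highest mean in both groups.

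For a test across all genes, 16684 genes with at least 1 CPM in at least 3 libraries were fitted with limma on log2(CPM + 1), and calls were made where the Benjamini-Hochberg adjusted p was below 0.05. There were calls for 50 genes higher with ibuprofen, 0.3% of those tested, and for 37 lower, 0.222%; with trimmed-mean scaling the split was 32 higher and 50 lower. The total of 87 rests on single libraries: leaving out ibuprofen replicate 1 gave 23 calls and leaving out ibuprofen replicate 3 gave 44, while dropping an untreated library gave 4 (replicate 1), 5 (replicate 2) or 456 (replicate 3). Of the 10 genes, 5 were high enough to be tested, namely Muc2, Muc5b, Muc1, Fcgbp and Agr2, and the other 5 were too low. Muc2 passed the filter only through its ibuprofen libraries, so a tested Muc2 had to differ. Of the 5, Muc2 and Fcgbp were called higher, which is the contrast that chose the set and is no support for it. Neither was called without untreated replicate 1 or without untreated replicate 2, and Fcgbp was not called without ibuprofen replicate 1. With any ibuprofen library left out Muc2 fell below the filter. The median log2 difference was 0.609 over the 10 genes, 5 of them too low to test, and 0.886 over the 5 tested ones, against 0.0427 over all tested genes; the genes that chose the set are among them.

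**Figure D3:**
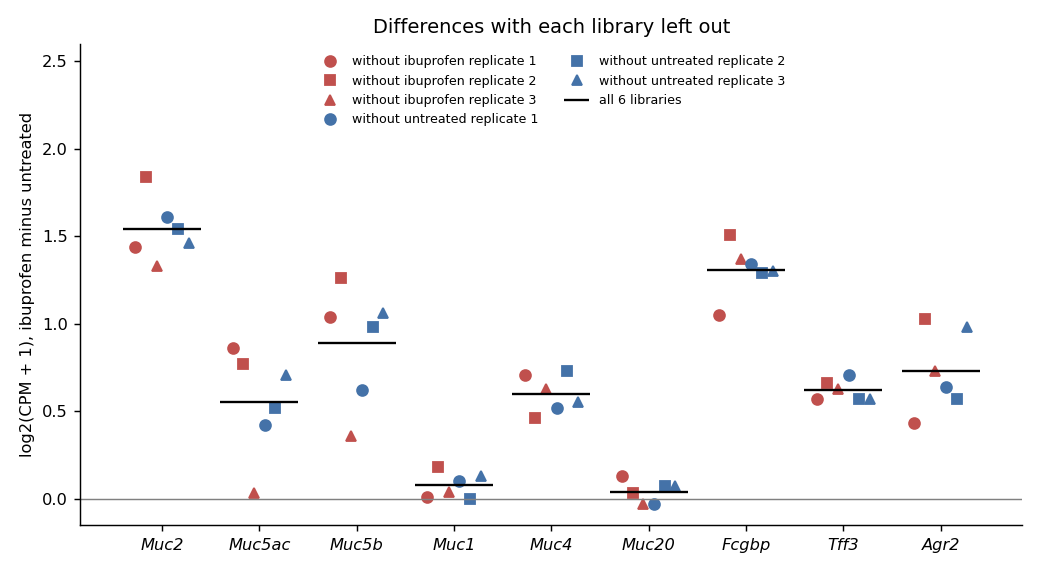
Difference in log2(CPM + 1), ibuprofen minus untreated, for 9 genes (Tff2 had no reads), with all 6 libraries (black line) and with each ibuprofen library (red) or untreated library (blue) left out. Muc2 stays between 1.33 and 1.84 and Fcgbp between 1.05 and 1.51, while Muc5ac is at 0.03 and Muc5b at 0.36 without ibuprofen replicate 3.

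Genes whose levels followed Muc2 or Fcgbp most closely were sought among 10238 tested genes averaging at least 5 CPM, by Pearson's r of log2(CPM + 1) over the 6 libraries. For Muc2 they were Zdhhc14 (r = 0.995), Rftn2 (0.992), Smad1 (0.992), Ube2r2 (0.985) and Scarb2 (0.983). Zdhhc14, the closest to Muc2, encodes a palmitoyltransferase and had 16.8, 12.6 and 20.1 CPM in ibuprofen replicates 1, 2 and 3, against 7.39, 7.45 and 6.45 CPM in the untreated replicates. Rftn2, a raft-linking protein gene, had 9.19, 5.6 and 11.2 CPM in ibuprofen replicates 1, 2 and 3, against 2.25, 2.65 and 2.1 CPM in the untreated replicates. For Fcgbp they were Tmem98 (r = 0.993), Cdh11 (0.99), Tmem94 (0.988), Fam69a (0.987) and Klhl24 (0.987). Tmem98, the closest to Fcgbp, had 16.7, 13.9 and 14.1 CPM with ibuprofen, against 10.8, 10.4 and 10.9 CPM untreated. Cdh11, a cadherin of mesenchymal cells, had 15.1, 7.14 and 7.09 CPM with ibuprofen, against 1.75, 1.4 and 1.3 CPM untreated. Rftn2 and Cdh11 had the largest log2 differences of their 5 genes, 1.49 and 2.04, and were picked out after their values were seen; a like order of libraries follows from choosing genes by r. With 6 libraries in 2 groups these r values include the difference between the groups and the libraries the genes share, and are given as a description.

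Of 33 other named protein-coding genes within 100 kb of the 10 genes, 26 were tested and 0 were called in limma, against 0.521% of all tested genes. Before adjustment, p was below 0.05 for 1 with higher values, Abcg1, and 2 with lower values, Thbs3 and Tnk2. Over all tested genes this was so for 11.8% with higher and 6.17% with lower values, so nothing is read from these counts. Abcg1, a sterol transporter gene 7318 bases from Tff3, had 6.05, 2.9 and 4.15 CPM in ibuprofen replicates 1, 2 and 3, against 3, 2.3 and 1.4 CPM in the untreated replicates, with overlap (log2 difference 0.72 ± 0.27 SE, limma adjusted p = 0.209). Thbs3, a thrombospondin gene 2220 bases from Muc1, averaged 4.35 ± 1.13 CPM with ibuprofen and 7.94 ± 3.01 CPM untreated, with overlap (limma adjusted p = 0.193). Tnk2, a kinase gene 52393 bases from Muc4, averaged 46.5 ± 0.858 CPM with ibuprofen and 62 ± 10.2 CPM untreated, without overlap (limma adjusted p = 0.167). Tspan13, a tetraspanin gene 10470 bases from Agr2, had 18.3, 9.89 and 7.89 CPM with ibuprofen, against 6.15, 9.04 and 8.04 CPM untreated, highest in ibuprofen replicate 1 as Agr2 was (limma adjusted p = 0.337). Its groups overlapped, and Tspan13 was named after its values were seen. Also near Agr2, Agr3 had at most 0.25 CPM in any library, and Bzw2 averaged 63.5 CPM with ibuprofen and 58.5 CPM untreated (limma adjusted p = 0.623). Muc6, a gel-forming mucin of gastric glands 35021 bases from Muc2, had 10 ± 1.85 CPM with ibuprofen and 7.96 ± 1.46 CPM untreated (SD, n = 3 each; log2 difference 0.3 ± 0.2 SE, limma adjusted p = 0.435). Tollip, an adaptor of innate immune signalling 1729 bases from Muc5b, had 203 CPM with ibuprofen and 187 CPM untreated on average (adjusted p = 0.571 in limma). Ap2a2, a subunit of the endocytic adaptor AP-2 on the other side of Muc6, had 101 and 111 CPM (adjusted p = 0.49 in limma). Near Fcgbp, the proteasome gene Psmc4 had 60 CPM with ibuprofen and 70.6 CPM untreated (adjusted p = 0.298 in limma), and the kinase gene Dyrk1b 46.3 and 39.4 CPM (adjusted p = 0.341 in limma). Next to Tff3 and Tff2, the gastric trefoil gene Tff1 averaged 0.05 CPM with ibuprofen and was listed at 0 untreated.

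Other genes of mucus and goblet cell secretion were taken from 5 lists made by function, 87 genes of which 85 were in the table and 35 were high enough to be tested. In limma 0 of these 35 were called, against 0.521% of all tested genes called in either direction. Before adjustment, p was below 0.05 for 2 with higher and 4 with lower values, which over all tested genes was so for 11.8% with higher and 6.17% with lower values. The median log2 difference was -0.0127, against 0.0427 over all tested genes. Among other mucins 2 of 11 were tested, Muc6 and Muc15. Muc15, a transmembrane mucin, had 9.59, 8.44 and 11.9 CPM in ibuprofen replicates 1, 2 and 3, against 2.7, 7.9 and 6.65 CPM in the untreated replicates. The groups did not overlap, with untreated replicate 1 the lowest, and the log2 difference was 0.79 ± 0.3 (SE, limma adjusted p = 0.209).

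Of goblet folding and granule genes 10 of 20 were tested. Xbp1, the transcription factor of the unfolded protein response in secretory cells, had 194, 175 and 165 CPM in ibuprofen replicates 1, 2 and 3, against 259, 230 and 242 CPM in the untreated replicates. All ibuprofen libraries lay below all untreated ones, with a log2 difference of -0.45 ± 0.1 (SE, limma adjusted p = 0.0822). Rab3d, a granule GTPase gene, averaged 59 ± 2.85 CPM with ibuprofen and 70.8 ± 3 CPM untreated (SD, n = 3 each; limma adjusted p = 0.228). Ern1, which encodes the sensor that activates Xbp1, averaged 228 ± 19.5 and 210 ± 17 CPM (limma adjusted p = 0.564). Its goblet cell paralogue Ern2, too low to test and named after its values were seen, had at most 0.25 CPM in any library.

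Of goblet lineage transcription factors 5 of 13 were tested. Elf3, an epithelial ETS factor, had 81.3, 84.3 and 82.4 CPM with ibuprofen, against 110, 100 and 101 CPM untreated, so the groups did not overlap (log2 difference -0.33 ± 0.1 SE, limma adjusted p = 0.141). Bhlha15, which encodes the secretory cell factor MIST1, had 1.5, 1.2 and 4.15 CPM with ibuprofen, against 1.3, 1.15 and 0.949 CPM untreated, with ibuprofen replicate 3 high (limma adjusted p = 0.389). Klf4, a factor of goblet cells and of squamous differentiation, averaged 841 ± 72.3 and 808 ± 73 CPM, and Sox9, a factor of columnar progenitors, 95.9 ± 23.4 and 95.9 ± 12.3 CPM. The goblet cell regulators Spdef and Atoh1 were too low to test and were named after their values were seen. Spdef had 0.5, 0.15 and 1.3 CPM with ibuprofen, against 0, 0.35 and 0.6 CPM untreated. Atoh1 had 1 read in ibuprofen replicate 1 and 0 in the other 5 libraries.

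Of mucin O-glycosylation genes 17 of 28 were tested. C1galt1, the enzyme that makes the core 1 sugar on mucins, had 149, 144 and 149 CPM with ibuprofen, against 97.7, 110 and 132 CPM untreated, without overlap (log2 difference 0.39 ± 0.12 SE, limma adjusted p = 0.143). Galnt3, which starts O-linked sugar chains, averaged 60.3 ± 1.97 and 50.3 ± 9.39 CPM (limma adjusted p = 0.311). Slc26a2, a sulphate transporter gene, averaged 801 ± 30.9 and 723 ± 45.4 CPM (limma adjusted p = 0.451).

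**Figure D4:**
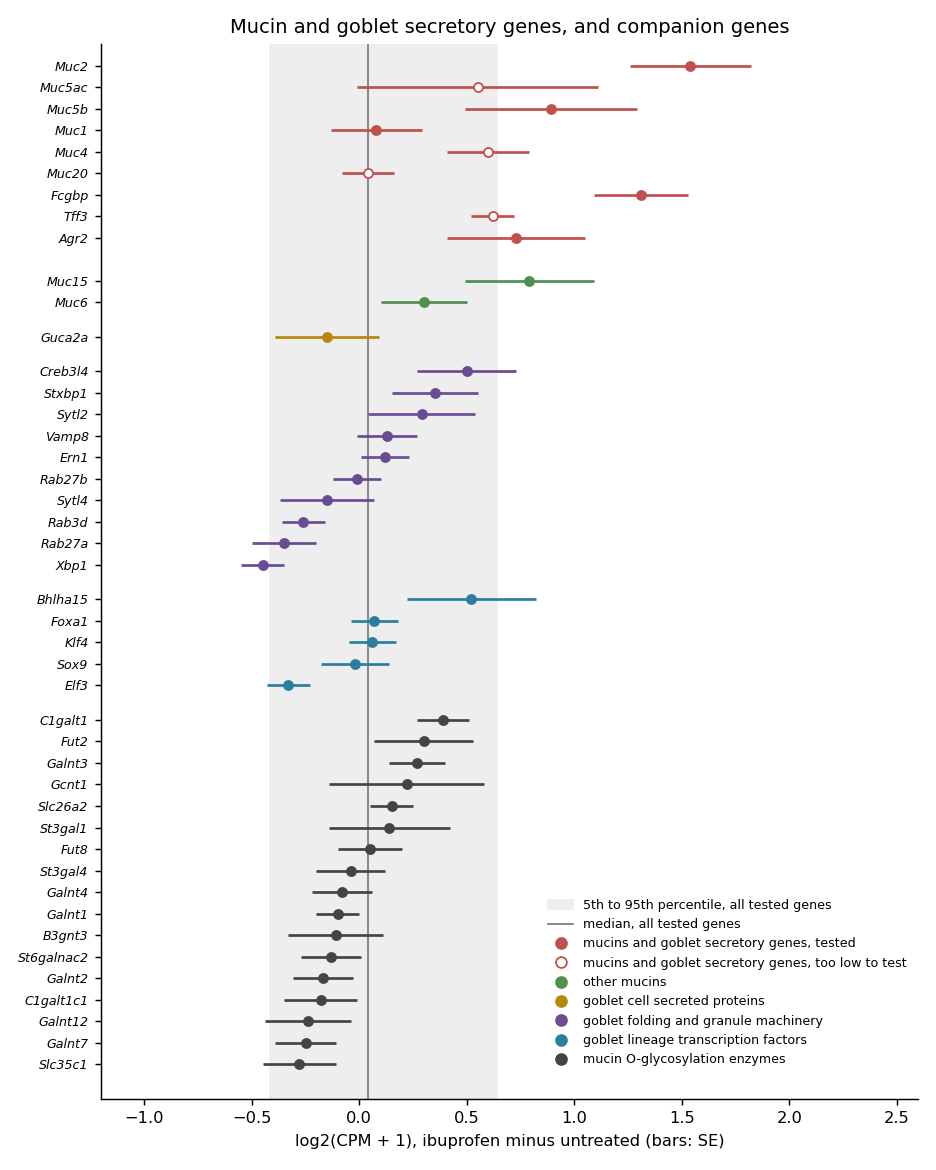
Difference in log2(CPM + 1), ibuprofen minus untreated, with SE, for 9 of the 10 genes (red, open where too low to test) and for 35 tested companion genes by list; the grey band spans the 5th to 95th percentile of all tested genes, -0.414 to 0.639. Muc2 and Fcgbp lie at 1.54 and 1.31, and 0 of the companion genes were called.

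Most secreted goblet cell proteins lay near or below the floor. Of 13 in the table only Guca2a, a guanylin gene, was tested, with 2, 1.45 and 0.799 CPM in ibuprofen replicates 1, 2 and 3, against 1.6, 1.65 and 1.65 CPM in the untreated replicates (limma adjusted p = 0.755). Among the 50 companion genes too low to test, 8 had all ibuprofen libraries above all untreated ones and 0 had the reverse, against 5.51% and 1.18% of all untested genes above 0 in at least 1 library. The 50 include 4 without a read in any library, a kind of gene that these shares leave out. Lying above all untreated libraries also needs a read in every ibuprofen library, while these shares cover genes with a read in any library. The count was not tested, and nothing is read from it. The 8 were Clca1, Zg16, Lypd8, Muc13, Muc3a, Creb3l1, Capn9 and B3gnt6, named after their values were seen. Some rest on very few reads: Muc3a had 1 read in each ibuprofen library and 0 in each untreated one. Capn9 had 4, 2 and 5 reads with ibuprofen and 0, 1 and 2 untreated. Clca1, which encodes a metalloprotease of intestinal mucus, had 2.7, 0.3 and 1.05 CPM in ibuprofen replicates 1, 2 and 3, against 0, 0.15 and 0 CPM in the untreated replicates. These were 22, 2 and 9 reads with ibuprofen and 0, 1 and 0 untreated. Zg16, a lectin of goblet cell mucus, had 11, 2 and 4 reads with ibuprofen and 0, 1 and 0 untreated. Both were highest in ibuprofen replicate 1, as Fcgbp, Agr2 and Tff3 were, and lowest of their group in ibuprofen replicate 2. Muc13, an intestinal transmembrane mucin, had 4, 11 and 3 reads with ibuprofen and 0, 2 and 0 untreated, and was highest in ibuprofen replicate 2, as Muc4 was. Dmbt1, a secreted mucin-like glycoprotein gene, was named for its level: it had 12.3 CPM in ibuprofen replicate 2 and at most 0.25 CPM in any other library. The mucus protein gene Retnlb was listed at 0 in all 6 libraries.

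**Figure D5:**
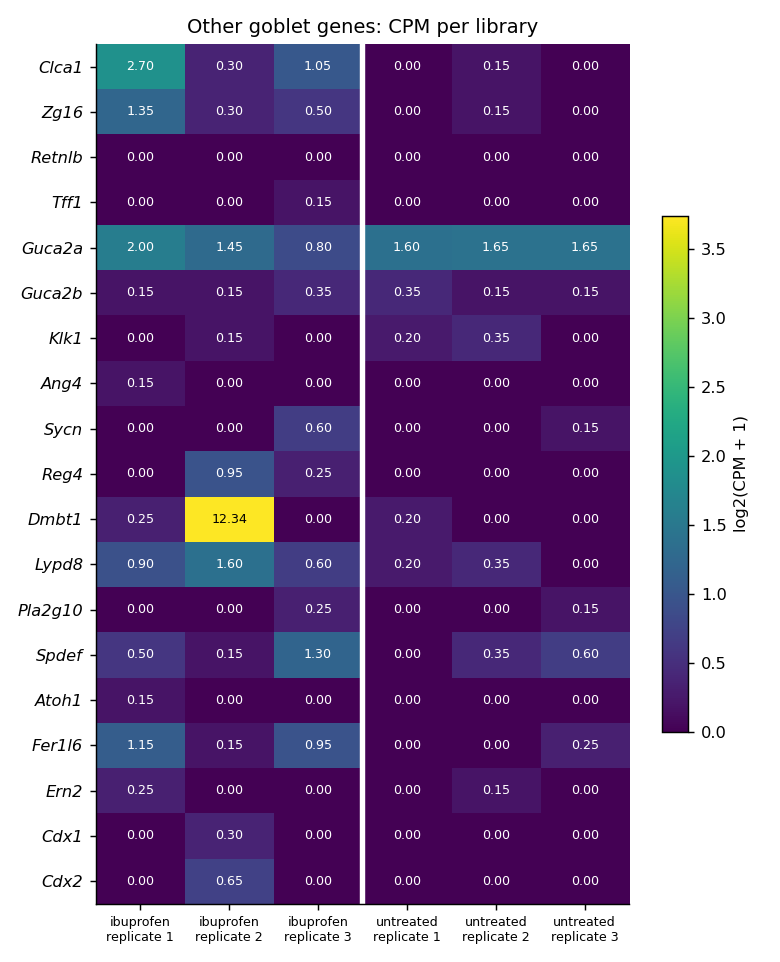
CPM of other goblet cell genes in each library, ibuprofen on the left and untreated on the right, with colour showing log2(CPM + 1). Clca1 and Zg16 are highest in ibuprofen replicate 1, Dmbt1 reaches 12.34 in ibuprofen replicate 2, and most untreated values lie below 0.5.

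Marker lists of other epithelia and cell types were set beside these values, and their part in the results was not tested. In each list the markers whose groups did not overlap were counted, which among all genes above 0 was so for 9.72% with higher and 4.84% with lower values. The 10 intestinal goblet cell markers summed to 3.3 to 8.1 CPM with ibuprofen and 1.6 to 2.5 CPM untreated, with Guca2a the most abundant, Retnlb at 0, and 2 of them, Clca1 and Zg16, higher without overlap. All 10 are also companion genes, so this list repeats values counted above and adds no separate result. The 10 columnar epithelium markers summed to 45.3 to 51.8 CPM with ibuprofen and 34.8 to 42.4 CPM untreated, and 5 of them were higher without overlap. These were Vil1, Lgals4, Krt8, Krt7 and Cdh17, named after their values were seen, and the last 3 were too low to test. Krt19 went the other way, at 4.78 ± 2.16 CPM with ibuprofen and 7.1 ± 1.42 CPM untreated, with overlap (limma adjusted p = 0.337). Of the 10, 5 were tested and 0 of these were called, while the other 5 were too low to test. The most abundant was Tmprss2, at 21.3 ± 1.79 CPM with ibuprofen and 19.6 ± 1.83 CPM untreated. Squamous markers, 7 in all, summed to 7510 to 8810 CPM with ibuprofen and 9330 to 10600 CPM untreated, and 1 of them, the basal keratin gene Krt14, was lower without overlap, at 1450 ± 121 CPM with ibuprofen and 2130 ± 432 CPM untreated (limma adjusted p = 0.132). The 10 airway markers summed to 247 to 276 CPM with ibuprofen and 133 to 250 CPM untreated, nearly all of it Cyp2f2, while Bpifa1 was at 0. Krt14, Scgb1a1 (the club cell secretoglobin gene), Scgb3a1, Sftpb and Gif (the gastric intrinsic factor gene) were named after their values were seen. Higher without overlap were 3 airway markers, all at most 1.3 CPM: Scgb1a1 averaged 0.999 ± 0.05 CPM with ibuprofen and 0.55 ± 0.18 CPM untreated, Scgb3a1 1.05 ± 0.218 and 0.45 ± 0.0866 CPM, and Sftpb 0.949 ± 0.264 and 0.3 ± 0.18 CPM. The 10 gastric markers summed to 9.45 to 18.3 CPM with ibuprofen and 7.05 to 9.84 CPM untreated, with Muc6 the most abundant and Gkn2 at 0. Gif had 48 reads in ibuprofen replicate 3, the library high in Muc5b and Muc5ac, and 1 to 5 reads in the other 5 libraries, and was the 1 gastric marker higher without overlap. Salivary and mucous gland markers summed to 6.05 to 11 CPM with ibuprofen and 5.4 to 9.89 CPM untreated, most of it Amy1, with Bpifa2 and Aqp5 at 0 and 0 without overlap.

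Of cells that are not epithelial, 7 fibroblast markers summed to 65.5 to 145 CPM with ibuprofen, the highest in replicate 1, and 43.5 to 86.5 CPM untreated, with Dcn the most abundant and 0 without overlap. The 7 leukocyte markers summed to 14.1 to 17.6 CPM with ibuprofen and 11 to 14.6 CPM untreated, with Cd68 the most abundant and the 1 marker higher without overlap. Cd52, the other tested marker, went the other way. It averaged 5.33 ± 1.36 CPM with ibuprofen and 6.23 ± 0.55 CPM untreated, with overlap (limma adjusted p = 0.605). Of those too low to test, Ptprc and Tyrobp averaged lower and Lyz2, Cd3e and Cd79a higher, all with overlap. Cd52 and these were named after their values were seen. The 5 endothelial markers summed to 13.5 to 17.9 CPM with ibuprofen and 13.1 to 14 CPM untreated, with Pecam1 the most abundant and the 1 marker higher without overlap. The other 4, too low to test and named after their values were seen, averaged lower with ibuprofen, with overlap. Cdh5 had 0.217 ± 0.257 CPM with ibuprofen and 0.933 ± 0.51 CPM untreated, and Plvap 0.267 ± 0.202 and 0.783 ± 0.472 CPM. Kdr and Emcn had at most 0.25 CPM in any library. The 6 muscle markers summed to 9.24 to 11.4 CPM with ibuprofen and 10.3 to 17.1 CPM untreated. Tagln was the most abundant, at 6.95 ± 0.476 CPM with ibuprofen and 6.53 ± 0.596 CPM untreated. It was most of the sum in each ibuprofen library. Untreated, it was 6.945 of 15.7 CPM in replicate 1 and 6.795 of 17.1 CPM in replicate 2. The 3 muscle genes Acta1, Ckm and Des, named after their values were seen, were lower without overlap. Acta1 had 0.5, 0.3 and 0.5 CPM in ibuprofen replicates 1, 2 and 3, against 2.55, 4.15 and 1.05 CPM in the untreated replicates (log2 difference -1.23 ± 0.31 SE, limma adjusted p = 0.104). Ckm averaged 0.833 ± 0.104 and 1.85 ± 0.721 CPM (limma adjusted p = 0.232), and Des had 0, 0.15 and 0.6 CPM with ibuprofen, against 1.15, 1.5 and 0.7 CPM untreated. For Fcgbp, Agr2, Tff3, Clca1 and Zg16 the highest library was ibuprofen replicate 1, which was also the highest in fibroblast markers. These 5 genes were grouped after their values were seen, and Tff3 had only 6, 4 and 5 reads in ibuprofen replicates 1, 2 and 3. Muc1, whose groups overlapped, had the same order, at 2.1, 1.45 and 1.95 CPM. Ibuprofen replicate 2, second in fibroblast markers at 99 CPM and above every untreated library, was the lowest ibuprofen library for these 5 genes. Of those 99 CPM, 88.1 CPM were Dcn. Collagen genes were not raised alike there: Col3a1 had 1.95 CPM, against 2.95 to 6 CPM untreated, and Col1a1 4.7 CPM, against 3.65 to 4.6 CPM untreated. What fibroblasts add to the values of these 5 genes was not tested. Muc2 had 4.8 CPM in ibuprofen replicate 3 and 3.95 CPM in ibuprofen replicate 1, and replicate 3 had 65.5 CPM of fibroblast markers, within the untreated range.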

How the data were processed

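The deposited values are CPM per the file headers, 1 column per library and 52636 gene IDs. Per the submitters' processing notes, tools included Cell Ranger 3.1.0, edgeR, HTSeq and STAR 2.5.3a, without saying what each did, and genome builds mm10 and GRCm38. Annotation release and filters were not given in the sources used here. Per the labels' protocols, cells were sorted from digested tissue, and total RNA was turned into sequencing libraries by the Ovation Solo kit. The values lie on steps that whole reads give after scaling to one total and rounding up, which lifts the lowest values slightly. Reads were estimated from these steps, returning at least 99.66% of values above 0 within 0.002 CPM. No count model was run on them.

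Genes with at least 1 CPM in at least 3 libraries were fitted with limma 3.58.1 in R 4.3.3 on log2(CPM + 1), letting the variance follow the mean, with no block and Benjamini-Hochberg adjustment over all 16684 genes. The procedure was tested on simulated data. For untested genes the SE came from the group variances. Exon lengths, GC content and positions came from GENCODE M21 (GRCm38), in which 52489 IDs were found, and promoters from RefSeq. Of listed symbols not in the table, Muc21 was found as Gm9573 and Mucl3 as Dpcr1 through RefSeq synonyms.

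The 10 genes, lists and alternatives were chosen with earlier results of these data known. Companion genes were named by the 2 smallest p and the 2 highest levels of each list, marker genes by level or a value of 0. Other splits and set tests were not used. P-values measure the spread between these libraries, which may be technical.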

Additional observations from a re-analysis of the deposited data

How the results depend on the processing

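The count of 87 called genes was 52 with no filter, 434 with the replicate block and 4 to 456 with single libraries left out, the lowest without untreated replicate 1. The replicate numbers share no stated origin: the correlation of deviations between same-numbered libraries was 0.000173, 0.0798 and 0.153, not every library correlated best with its own number, and the numbers were not taken to pair libraries. Companion genes called numbered 0 under 13 of 15 alternatives, 1 with the replicate block (Xbp1, lower) and 0 to 1 with a library left out (C1galt1, higher, without untreated replicate 3). Muc2 and Fcgbp chose the set, so their calls say nothing of stability; of both, 1 was called with no filter and 1 with the filter of 5 CPM (Fcgbp in each), and 0 to 2 with a library left out; the block changed neither. GC correction gave 55 higher and 56 lower calls. Muc2 moved most with the pseudocount, at 1.94 with 0.5 and 1.11 with 2, as did Tff3, at 1.01 and 0.35. Depth limits Muc2, Muc5ac, Muc4, Muc20, Tff2 and Tff3, whose untreated libraries held at most 5 reads.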
